A study of Mus musculus with 15 samples.

Results

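The comparison described here set 3 RNA-seq libraries of C2C12 cells carrying a dominant-negative form of the transcription factor MLX (MLX-DN) against 3 libraries of C2C12 cells carrying a non-targeting short hairpin RNA (shRNA), 6 of the 15 libraries of the series. C2C12 is an immortal mouse line of skeletal muscle precursors, and the labels call the cells myoblasts. Both constructs were brought in by lentivirus. The other 9 libraries, 3 per group, came from C2C12 cells with wild-type MLX (MLX-WT), with an shRNA against Mlx (MLX shRNA), and with a control vector that makes green fluorescent protein alone (GFP control). The non-targeting libraries were used as the control because their profile lay closest to that of MLX-DN: over the tested genes the 2 groups correlated at r = 0.986 to 0.989, against 0.961 to 0.965 for MLX-DN and the GFP control. That choice rests on measured values. One construct makes a protein and the other a hairpin, so the vector and the MLX-DN protein cannot be told apart in this contrast. Values of named genes against the GFP control are given where their direction differs. Those of gene lists are given for some lists only. The form of the dominant-negative protein, its promoter and the culture conditions at harvest were not given in the sources used here. Nothing in the labels tells whether the 3 libraries of each group stem from distinct cultures. The p-values therefore speak of the spread among these libraries alone, which may be technical. Of 23352 genes in the table, 11945 reached 1 FPKM (fragments scaled by transcript length and library depth) in at least 3 of the 15 libraries and were tested. Differences are MLX-DN minus non-targeting shRNA on the log2(FPKM + 2) scale unless another comparison is named, and a gene was called where its adjusted p was under 0.05.

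MLX belongs to the basic helix-loop-helix leucine zipper proteins and binds E-box DNA only as a dimer, chiefly with MondoA (Mlxip), with ChREBP (Mlxipl) or with the repressors of the MAD family. In muscle, MondoA and MLX move to the nucleus when glucose 6-phosphate accumulates and switch on a small set of genes with a carbohydrate response element, of which Txnip and Arrdc4 are the best known. A dominant-negative MLX is built to occupy the partner without productive DNA binding, and so is used to silence both MondoA and ChREBP.

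The promoters of both known targets, and those of the cholesterol, replication and mitosis genes that show the other movements most clearly, are printed first. Each line gives the 250 bases before the RefSeq start site, on the strand of the gene (GRCm38.p6), with motif matches in capitals. Txnip is at chr3:96557707-96557956 (plus strand), Arrdc4 at chr7:68749239-68749488 (minus), Idi1 at chr13:8885356-8885605 (plus), Mcm3 at chr1:20820313-20820562 (minus) and Top2a at chr11:99024190-99024439 (minus).
Txnip: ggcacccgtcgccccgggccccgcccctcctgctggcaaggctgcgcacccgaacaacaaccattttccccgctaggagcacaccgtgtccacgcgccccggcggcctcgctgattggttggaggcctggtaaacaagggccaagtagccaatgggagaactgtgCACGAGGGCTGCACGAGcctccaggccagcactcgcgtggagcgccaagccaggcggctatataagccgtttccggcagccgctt
Arrdc4: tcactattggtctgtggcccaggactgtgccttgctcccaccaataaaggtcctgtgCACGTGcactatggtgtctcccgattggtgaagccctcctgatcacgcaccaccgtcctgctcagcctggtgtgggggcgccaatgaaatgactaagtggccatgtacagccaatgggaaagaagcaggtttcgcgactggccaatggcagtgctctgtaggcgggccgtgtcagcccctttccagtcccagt
Idi1: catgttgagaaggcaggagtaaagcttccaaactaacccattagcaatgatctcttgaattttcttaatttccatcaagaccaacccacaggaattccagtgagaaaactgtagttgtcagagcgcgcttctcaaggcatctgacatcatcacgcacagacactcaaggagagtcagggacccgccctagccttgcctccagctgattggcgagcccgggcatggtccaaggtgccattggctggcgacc
Mcm3: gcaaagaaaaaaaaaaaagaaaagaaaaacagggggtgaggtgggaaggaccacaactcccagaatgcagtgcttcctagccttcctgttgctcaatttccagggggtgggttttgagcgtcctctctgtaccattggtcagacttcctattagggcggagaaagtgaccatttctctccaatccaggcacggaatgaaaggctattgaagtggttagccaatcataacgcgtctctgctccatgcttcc
Top2a: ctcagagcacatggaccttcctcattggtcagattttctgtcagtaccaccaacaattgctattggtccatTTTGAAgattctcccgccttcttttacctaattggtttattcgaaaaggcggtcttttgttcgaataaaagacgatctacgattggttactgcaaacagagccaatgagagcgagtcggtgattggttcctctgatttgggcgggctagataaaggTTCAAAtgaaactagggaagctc
The capitals in Txnip are the carbohydrate response element, read as a pair of CACGNG with 5 bases between them, which starts at -85 from the start site. The capitals in Arrdc4 are an E-box, CACGTG, at -193. In Top2a they are the cell cycle homology region, TTTGAA, at -179 and, on the opposite strand, at -23. Idi1 and Mcm3 held no match in these bases, and the E2F site of Mcm3, GCGGGAA, lay at 20 bases after its start. Both strands were searched in windows from 250 bases before to 50 after the start, and an E-box can form one side of the response element.

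Depth, read from the steps between low values, was 47.1 to 65.8 M reads in the MLX-DN libraries and 39.5 to 56.1 M in the non-targeting ones. Libraries within a group correlated at r = 0.998 to 0.999. By limma with Benjamini-Hochberg adjustment, 8331 of the 11945 tested genes differed between the groups (69.7% of all tested), 2510 higher (21%) and 5821 lower (48.7%) with MLX-DN, and in 8721 genes (73%) one group had its 3 libraries all above the other's. Most of these differences were small: the median size was 0.16 on the log2 scale against a median SE of 0.036, and 53 genes (0.444%) differed at least 2-fold, 34 higher and 19 lower. The median over all tested genes was -0.085, and the balance of calls depended on the scaling: 30.1% of called genes were higher as deposited, 52.7% with each library centred on its median and 47.3% after quantile normalization. The counts of any gene list have to be read against these shares. Markers of muscle precursors and muscle differentiation were abundant in both groups, with Myod1, Cdh15 (M-cadherin) and Chrna1 at 94.8, 178 and 264 FPKM and the differentiation factor Myog at 657 FPKM in the non-targeting control. Cells labelled as myoblasts thus carried transcripts of differentiating muscle in both groups. In bulk RNA, fewer cells of a type and less RNA per cell cannot be told apart. The ribosomal RNA row Rn45s, which marks RNA that escaped poly(A) selection, held 279, 363 and 319 FPKM in the MLX-DN libraries and 147, 107 and 111 FPKM in the non-targeting libraries (log2 difference 1.39, SE 0.560, adjusted p = 0.0378). The call was lost without any 1 of MLX-DN replicates 1, 2 and 3 and non-targeting replicates 2 and 3 (adjusted p = 0.0554, 0.0904, 0.0736, 0.0900 and 0.0852), and with no filter (adjusted p = 0.141). MLX-WT replicate 2 stood at 1263 FPKM beside 125 and 158 in its group, and without that library the adjusted p of Rn45s was 7.42e-07. The part of ribosomal RNA in the differences below was not tested.

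**Figure D1:**
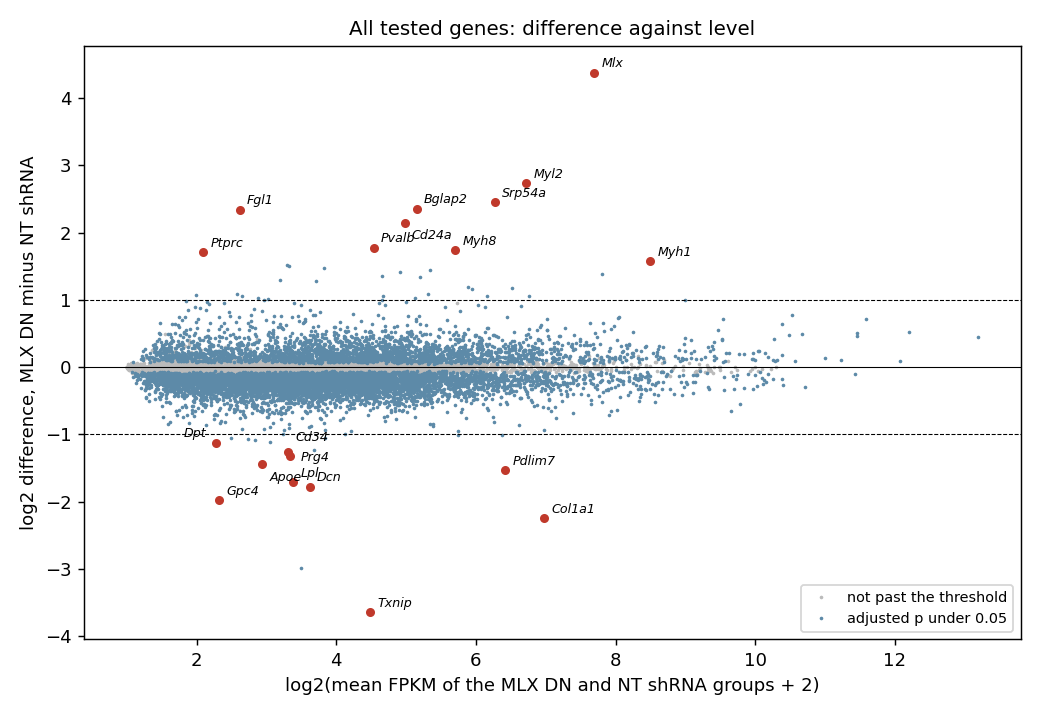
Each point is 1 of 11945 tested genes, with the log2 of the mean FPKM of both groups plus 2 on the x axis and the log2 difference, MLX-DN minus non-targeting shRNA, on the y axis. Dashed lines mark 2-fold, blue points passed the threshold, and red points name the 10 largest rises and falls under the naming rule, from Mlx at 4.37 to Txnip at -3.64.

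Mlx itself was read first, since the construct should raise its RNA. It measured 384, 399.9 and 398 FPKM in the MLX-DN libraries and 16.3, 17.1 and 17.9 FPKM in the non-targeting libraries (log2 difference 4.37, SE 0.0596, adjusted p = 6.78e-17). All 3 MLX-DN libraries lay far above the control, by about the same amount in each. The table does not separate transcripts of the construct from those of the cells' own gene, and 19.3% of the exon bases of Mlx overlap Psmc3ip on the other strand. Of the 16 tested genes of the MLX network (16 of 18 listed reached the filter), 3 were higher (18.8%) and 10 lower (62.5%). Over all tested genes 21% were higher and 48.7% lower. The median of the network was -0.22, against -0.085 for all genes. Mlxip, which encodes MondoA, the main MLX partner in muscle, measured 4.04, 4.18 and 3.57 FPKM in the MLX-DN libraries and 5.03, 4.51 and 4.74 FPKM in the non-targeting libraries (log2 difference -0.19, SE 0.0539, adjusted p = 0.00545). Its groups did not overlap, but the call was lost with median centring (-0.10, adjusted p = 0.114) and quantile normalization (0.225), and against the GFP control (-0.036, adjusted p = 0.540). Mlxipl, which encodes ChREBP, did not reach the filter (0.00507 FPKM with MLX-DN and 0.00323 in the control).

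Among the other members, 5 repressors that pair with MLX or MAX fell. Mxd3 measured 11.8, 11.6 and 11.7 FPKM in the MLX-DN libraries and 17.6, 17.5 and 17.7 FPKM in the non-targeting libraries (log2 difference -0.52, SE 0.0345, adjusted p = 5.10e-09), and Mxd1 measured 1.74, 1.66 and 1.53 FPKM in the MLX-DN libraries and 2.82, 2.99 and 3.29 FPKM in the non-targeting libraries (log2 difference -0.47, SE 0.0428, adjusted p = 1.64e-07). In both genes every MLX-DN library was below every control library. Mxd4 (-0.30), Mnt (-0.25) and Mxi1 (-0.25) were lower as well, although Mxi1 was higher than in the GFP control (0.12). Max, the common partner of MYC and MAD proteins, stood at 0.0045 (adjusted p = 0.891), and was called higher with median centring (0.10), with quantile normalization (0.090) and against the GFP control (0.12). Myc was lower (-0.33) and Mycl1, another MYC family gene, did not pass (-0.066, adjusted p = 0.0573, and 0.0120 without MLX-DN replicate 2), and was higher than in the GFP control (1.24). The E-box factors Usf1 (-0.17) and Usf2 (-0.27) and the lysosomal regulator Tfe3 (-0.39) were lower, its relative Tfeb (0.16, and 0.086 with adjusted p = 0.0638 against the GFP control) and the MAX partner Mga (0.15) higher, and Mitf did not pass (-0.044, adjusted p = 0.188). The call of Usf1 was lost with both rescalings (adjusted p = 0.125 with median centring and 0.0551 with quantile normalization).

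Txnip, the arrestin-like protein that binds thioredoxin and restrains glucose uptake, had the largest fall of the tested genes on the log2(FPKM + 2) scale. With an offset of 0.1 the glypican gene Gpc4 fell further (-5.60 beside -4.81 for Txnip). Txnip measured 1.251, 1.17 and 1.51 FPKM in the MLX-DN libraries and 38.6, 40.2 and 39.1 FPKM in the non-targeting libraries (log2 difference -3.64, SE 0.0386, adjusted p = 4.81e-18). The MLX-DN libraries lay far below the controls, with no overlap, and below the MLX shRNA libraries as well, which measured 4.69, 4.54 and 4.93 FPKM. The antisense gene Gm15441, which shares 19.4% of the exon bases of Txnip, measured 0.571, 0.491 and 0.531 FPKM in the MLX-DN libraries and 17.9, 18.7 and 17.7 FPKM in the non-targeting libraries (log2 difference -2.99, SE 0.0374, adjusted p = 2.82e-17). The strand setting of the counting was not given in the sources used here, so reads of this pair may not be told apart. Arrdc4, the closest relative of Txnip, missed the filter and has no test, with 0.00390, 0.00490 and 0 FPKM in the MLX-DN libraries and 0.200, 0.0929 and 0.0866 FPKM in the non-targeting libraries. The MLX-DN values were at or below the floor of 3 reads (0.0228 to 0.0319 FPKM for 2000 bases of transcript, counting error only), and the non-targeting values lay above it. Arrdc4 reached 0.405, 0.354 and 0.338 FPKM in the GFP control and 0.738, 0.910 and 0.882 FPKM with MLX-WT. The remaining arrestin relatives did not move as Txnip did: Arrdc3, a regulator of beta-adrenergic receptors, was higher (0.32), Arrdc2 lower (-0.13, a call lost with median centring, adjusted p = 0.408, and quantile normalization, adjusted p = 0.252), and Arrdc1 did not pass (0.10, adjusted p = 0.158). Arrdc1 was called higher with median centring (0.19), with quantile normalization (0.18) and without MLX-DN replicate 3 (0.16, adjusted p = 0.0268).

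**Figure D2:**
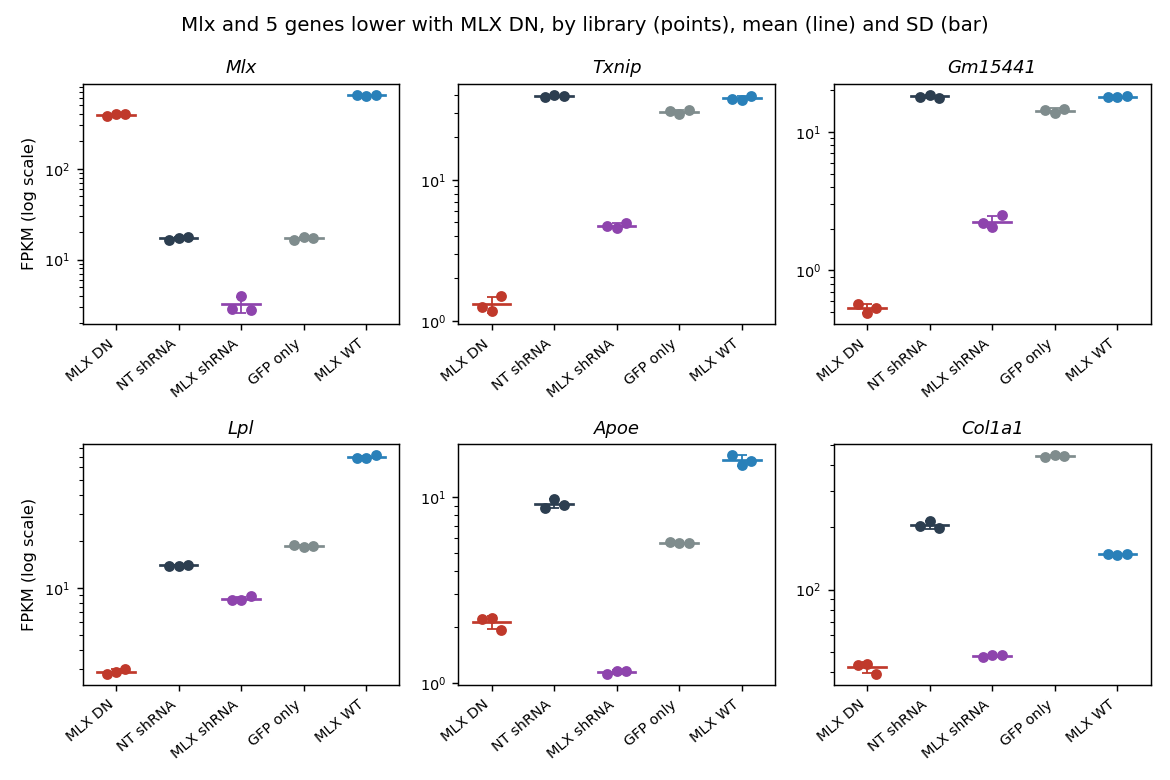
FPKM on a log scale for Mlx, Txnip, its antisense gene Gm15441, Lpl, Apoe and Col1a1, 1 point for each of 3 libraries in the 5 groups, with the group mean and SD. Txnip stands at 1.17 to 1.51 FPKM in the MLX-DN libraries and 38.6 to 40.2 in the non-targeting ones, and Lpl and Apoe are lower with MLX-DN and higher with MLX-WT than in the respective control.

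The response element of the Txnip promoter was rare. It occurred in 10 of 11858 promoters of tested genes (0.0843%, 9303 genes had a promoter in the RefSeq table). Of these 10 genes 4 were lower, 1 was higher and 5 did not pass. Over all tested genes 48.7% were lower and 21% higher, so this count shows no excess of falls. Txnip was the only one at least 2-fold lower. Nfkb2, which encodes an NF-kappaB subunit, was at -0.42, the RNA-binding protein gene Rbmxl1 at -0.18, the chromatin subunit gene Rbbp4 at -0.055 (0.038 with median centring and 0.023 against the GFP control) and the folliculin partner gene Fnip1 at 0.082. The call of Rbbp4 was lost without MLX-DN replicate 1 (adjusted p = 0.0612) or 2 (0.0666) or non-targeting replicate 2 (0.0596). That of Fnip1, the 1 rise in this count, was lost without any 1 of the 6 compared libraries (adjusted p = 0.0526 to 0.122) and with no filter (0.0622). A plain E-box occurred in 10.1% of promoters of tested genes and in 0 of 14 promoters of the genes at least 2-fold lower. Those 14 promoters covered 11 of the 19 genes, too few to tell 0 from that share. It occurred in 22.7% of 22 promoters of the glucose-responsive list and 20% of 20 of the cholesterol list. The shares were 14.6% for the replication list, 8.51% for the mitosis list, 3.03% for the sarcomere list and 0 for the arrestins. No test was run.

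The glucose-responsive genes that MondoA or ChREBP are known to drive in liver, fat or muscle did not fall as a body. Of 27 listed, 20 reached the filter, and 5 of these were higher (25%) and 11 lower (55%), near the 21% and 48.7% of all tested genes. The median was -0.10, beside -0.085 for all genes. Klf10, a repressor induced by glucose and TGF-beta, measured 22.98, 22.7 and 23.2 FPKM in the MLX-DN libraries and 34.7, 32.9 and 34.2 FPKM in the non-targeting libraries (log2 difference -0.53, SE 0.0368, adjusted p = 8.74e-09). The hormone gene Fgf21 measured 32.2, 30.5 and 31.9 FPKM in the MLX-DN libraries and 45.7, 44.6 and 42.9 FPKM in the non-targeting libraries (log2 difference -0.47, SE 0.0466, adjusted p = 3.78e-07), below the non-targeting control in every library, yet above the GFP control, where it stood at 5.97 FPKM (2.08). G6pc3, a glucose 6-phosphatase, was lower (-0.38), as were the lipogenic enzymes Acly (-0.35) and Fasn (-0.19), the lipolysis inhibitor G0s2 (-0.29) and malic enzyme Me1 (-0.12). Hexokinase 2, Hk2, was at -0.14 (0.036 against the GFP control), and the regulators of glycolysis Pfkfb2 and Pfkfb3 at -0.085 and -0.088. The calls of Hk2 and Me1 were lost with median centring (adjusted p = 0.153 and 0.502) and with quantile normalization (0.0607 and 0.192). Those of Pfkfb2 and Pfkfb3 were lost with both rescalings too, and median centring turned their sign (0.0075 and 0.0053). The call of Pfkfb2 was also lost without MLX-DN replicate 3 (adjusted p = 0.0689) or non-targeting replicate 1 (0.0633), and that of Pfkfb3 without MLX-DN replicate 2 (0.0787) or non-targeting replicates 2 (0.0544) or 3 (0.0570).

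Several genes of the same list went the other way. Acacb, the acetyl-CoA carboxylase that restrains fatty acid oxidation in muscle mitochondria, measured 2.51, 2.40 and 2.48 FPKM in the MLX-DN libraries and 0.525, 0.690 and 0.786 FPKM in the non-targeting libraries (log2 difference 0.74, SE 0.0337, adjusted p = 7.44e-11). The glycerol 3-phosphate dehydrogenase gene Gpd1 measured 2.47, 2.49 and 2.41 FPKM in the MLX-DN libraries and 0.841, 1.17 and 1.04 FPKM in the non-targeting libraries (log2 difference 0.56, SE 0.0415, adjusted p = 1.51e-08), but was lower than in the GFP control (-0.26). In both genes the 2 groups lay apart. Fructokinase, Khk (0.35), the desaturase Scd1 (0.29) and the G protein regulator Rgs16 (0.12) were higher. Tkt (-0.11, adjusted p = 0.0561), Acaca (-0.051, 0.141), Mid1ip1 (-0.019, 0.579) and Elovl6 (0.065, 0.207) did not pass. Tkt, a pentose phosphate enzyme, was called lower without MLX-DN replicate 2 (adjusted p = 0.00881), non-targeting replicate 1 (0.0237) or MLX shRNA replicate 1 (0.0268). Elovl6, a fatty acid elongase, was called higher with median centring (0.16) and quantile normalization (0.16), and Mid1ip1, a lipogenic regulator, with median centring (0.074). Against the GFP control Elovl6 (-0.42), Mid1ip1 (-0.35), Tkt (-0.41) and Acaca (-0.13) were all called lower.

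Genes of glycolysis were divided, with 8 of 24 higher (33.3%) and 12 lower (50%), beside 21% and 48.7% of all tested genes. Their median was -0.057, and median centring changed the split to 10 and 5. The muscle isoforms of phosphoglycerate mutase, Pgam2 (0.62), and phosphofructokinase, Pfkm (0.35), rose, and the more widely expressed Pfkp (-0.61) and Hk1 (-0.46) fell. Against the GFP control Pgam2 (-0.84), Pfkm (-0.29) and Pfkp (0.49) had the opposite sign. Of 21 tested genes of glucose uptake and insulin signalling 4 were higher and 12 lower (median -0.13): the glucose transporters Slc2a6 (-0.52) and Slc2a1 (-0.35, and 0.19 against the GFP control) were lower, and Gyg, which primes glycogen, was higher (0.47). Of 13 genes of the pentose phosphate pathway and NADPH supply 1 was higher, the isocitrate dehydrogenase Idh1 (0.20), and 9 were lower (median -0.13), among them the NAD kinase Nadk (-0.40) and the entry enzyme of the pathway, G6pdx (-0.24), of which 13.6% of exon bases overlap Ikbkg on the other strand. Nadk and Idh1 changed sign against the GFP control (0.11 and -0.28).

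Among genes that handle lipid, lipoprotein lipase and apolipoprotein E fell. Lpl, which frees fatty acids from circulating triglyceride, measured 2.79, 2.89 and 2.99 FPKM in the MLX-DN libraries and 13.9, 13.95 and 14.1 FPKM in the non-targeting libraries (log2 difference -1.71, SE 0.0268, adjusted p = 2.77e-16). Apoe, a carrier of cholesterol and lipid, measured 2.21, 2.23 and 1.94 FPKM in the MLX-DN libraries and 8.78, 9.83 and 9.11 FPKM in the non-targeting libraries (log2 difference -1.45, SE 0.0421, adjusted p = 4.22e-13). No MLX-DN library reached the lowest control value of either gene. Fabp3, the fatty acid carrier of muscle, went the other way with 94.2, 96.9 and 92.5 FPKM in the MLX-DN libraries and 46.5, 42.5 and 43.5 FPKM in the non-targeting libraries (log2 difference 1.06, SE 0.0314, adjusted p = 4.86e-13), and its relative Fabp5 was lower (-0.82). Of 27 tested genes of fatty acid oxidation 12 were higher (44.4%) and 5 lower (18.5%, median 0.055), beside 21% and 48.7% of all tested genes. The electron transfer flavoprotein gene Etfa was at 0.57. Compared with the GFP control, 11 of the 27 were higher and 14 lower (median -0.093), beside 32.6% and 48.8% of all tested genes. Of 22 genes of fatty acid synthesis 7 were higher (31.8%) and 10 lower (45.5%), beside 21% and 48.7% of all tested genes. Their median was -0.042, or 0.05 with median centring. The largest rises were those of Acacb, the acetate-activating enzyme Acss2 (0.68), the desaturase Scd2 (0.61) and the acyl-CoA synthetase Acsl3 (0.45).

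Genes of cholesterol synthesis rose. Of 24 tested members (25 of 26 listed were in the table), 18 were higher, where 21% of all tested genes were, and 1 was lower, with a median of 0.38. Idi1, which makes dimethylallyl diphosphate, measured 29.03, 29.3 and 32.2 FPKM in the MLX-DN libraries and 14.5, 14.1 and 15.03 FPKM in the non-targeting libraries (log2 difference 0.96, SE 0.0433, adjusted p = 7.44e-11). Fdps, the farnesyl diphosphate synthase, measured 162, 159 and 154 FPKM in the MLX-DN libraries and 95.9, 96.6 and 94.7 FPKM in the non-targeting libraries (log2 difference 0.71, SE 0.0232, adjusted p = 1.47e-12). Sc4mol (now Msmo1), a sterol demethylase component, measured 29.2, 28.7 and 31.3 FPKM in the MLX-DN libraries and 17.5, 17.2 and 16.96 FPKM in the non-targeting libraries (log2 difference 0.72, SE 0.0350, adjusted p = 1.54e-10). All 3 genes were higher in every MLX-DN library, and each was also higher than in the GFP control (1.02, 0.61 and 0.96). The enzymes Nsdhl (0.61) and Cyp51 (0.55) and the feedback regulator Insig1 (0.39) were higher too.

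Not every member shared this rise. Sqle, the squalene epoxidase, measured 30.8, 31.4 and 31.3 FPKM in the MLX-DN libraries and 30.03, 30.3 and 29.8 FPKM in the non-targeting libraries (log2 difference 0.050, adjusted p = 0.0810), and was lower than in the GFP control (-0.12). Median centring and quantile normalization gave it a call (0.14 and 0.12). Srebf2, the transcription factor of the pathway, was the one member that fell, with 44.98, 45.5 and 42.3 FPKM in the MLX-DN libraries and 60.9, 65.2 and 61.8 FPKM in the non-targeting libraries (log2 difference -0.48, SE 0.0299, adjusted p = 2.43e-09). Against the GFP control 14 of the 24 were higher and 7 lower (32.6% and 48.8% of all tested genes), with a median of 0.25. With MLX shRNA, whose comparison shares the non-targeting libraries, 7 of the 24 were higher and 10 lower (30.8% and 39.3% of all tested genes), with a median of -0.022. The core of the sterol regulatory element, TCACNCCAC, occurred in 0 of 20 promoters of these genes and in 1.12% of those of all tested genes.

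Every tested gene of DNA replication and the entry into S phase was lower. All 50 listed members passed the filter and all 50 were called lower, where 48.7% of all tested genes were, with log2 differences from -1.05 to -0.18 and a median of -0.54. Tk1, the thymidine kinase of S phase, measured 7.27, 8.29 and 6.47 FPKM in the MLX-DN libraries and 18.6, 16.5 and 16.7 FPKM in the non-targeting libraries (log2 difference -1.05, SE 0.0554, adjusted p = 4.11e-10). Mcm3, a subunit of the replicative helicase, measured 9.97, 9.80 and 9.15 FPKM in the MLX-DN libraries and 21.1, 21.7 and 20.9 FPKM in the non-targeting libraries (log2 difference -0.997, SE 0.0330, adjusted p = 1.90e-12), and the subunits Mcm5 (-0.93) and Mcm2 (-0.82) and the DNA methylation cofactor Uhrf1 (-0.90) were close behind. In these genes no MLX-DN library reached the lowest control. E2f2, an E2F factor, was lower as well (-0.58), but higher than in the GFP control (0.74).

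Genes of mitosis followed with smaller differences. Of 53, 52 were lower (98.1%) and 0 higher (median -0.35), beside 48.7% lower and 21% higher of all tested genes. Top2a, the topoisomerase that untangles chromosomes, measured 34.4, 34.98 and 35.8 FPKM in the MLX-DN libraries and 56.7, 57.2 and 56.4 FPKM in the non-targeting libraries (log2 difference -0.67, SE 0.0231, adjusted p = 3.39e-12). Cdk1, the kinase of mitotic entry, measured 16.02, 16.5 and 16.3 FPKM in the MLX-DN libraries and 25.5, 25.9 and 25.7 FPKM in the non-targeting libraries (log2 difference -0.60, SE 0.0216, adjusted p = 5.03e-12). Both genes separated the groups completely. The mitotic factor Foxm1 (-0.61), the kinase Melk (-0.74) and the cytokinesis gene Racgap1 (-0.51) were lower. With median centring 50 of 50 replication genes and 43 of 53 mitosis genes were still called lower. The TTTGAA motif occurred in 70.2% of 47 promoters of the mitosis genes and 12% of those of all tested genes, and GCGGGAA in 37.5% of 48 promoters of the replication genes and 8.13% overall. Among D cyclins, cyclin-dependent kinases and their inhibitors 4 of 16 were higher (25%) and 9 lower (56.2%), near the shares of all tested genes. Cdk4 (-0.58), Cdk6 (-0.63) and Ccnd3 (-0.57) fell, and Ccnd2 (0.53) and the growth arrest gene Gadd45a (0.57) rose. Cdk4 and Gadd45a share 19.7% and 19.1% of their exon bases with Tspan31 and E230016M11Rik on the opposite strand and are uncertain to that extent. Against the GFP control the medians of replication and mitosis were -0.76 and -0.78, and with MLX shRNA against the non-targeting libraries -0.42 and -0.53. Both lists were also lower with MLX-WT against the GFP control, with medians of -0.34 and -0.24, beside -0.051 over all tested genes. There 43 of 50 replication genes were lower and 3 higher, and 43 of 53 mitosis genes lower and 4 higher.

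**Figure D3:**
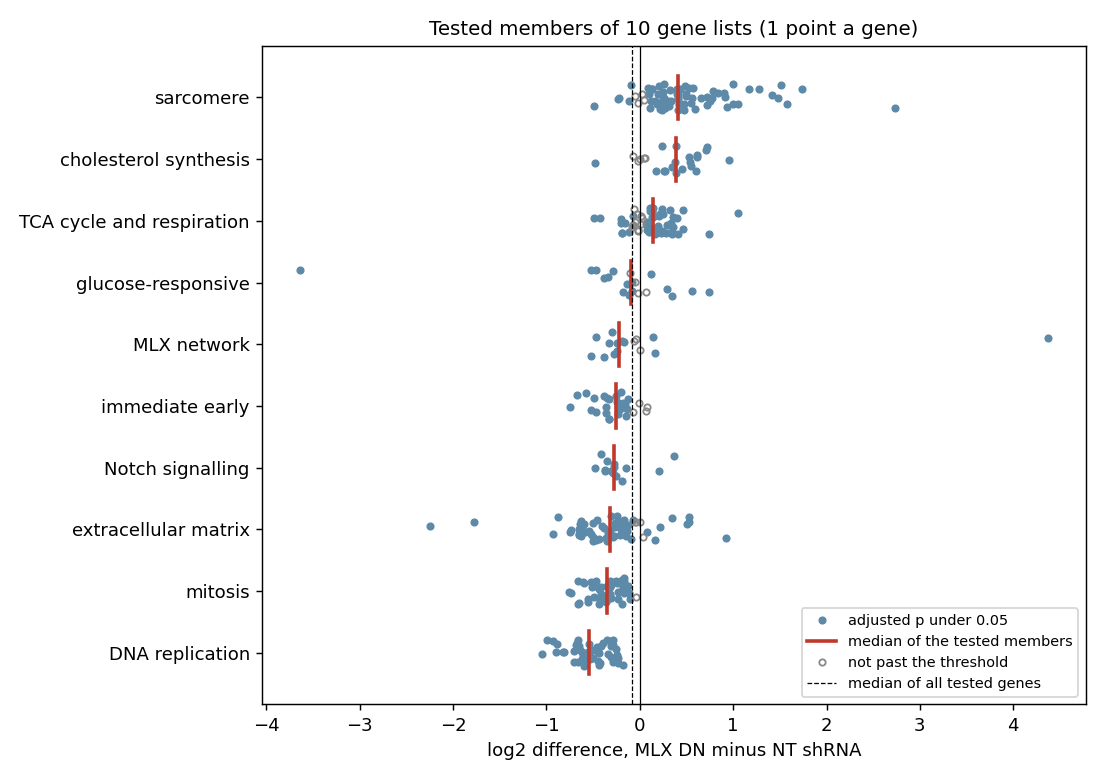
Log2 differences, MLX-DN minus non-targeting shRNA, of the tested members of 10 gene lists, 1 point a gene (filled where called, open where not), with the list median (red line) and the median of all tested genes (dashed line at -0.085). The 50 replication genes all lie below 0, and 64 of 73 sarcomere genes and 18 of 24 cholesterol genes are called above it.

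Genes of the contractile apparatus were higher with MLX-DN. Of 73 tested members (of 77 listed), 64 were higher (87.7%) and 5 lower (6.85%), beside 21% and 48.7% of all tested genes. The median was 0.41, and 9 members rose at least 2-fold. Myl2, the regulatory light chain of slow myosin, measured 179, 189 and 178 FPKM in the MLX-DN libraries and 26.1, 27.1 and 23.8 FPKM in the non-targeting libraries (log2 difference 2.73, SE 0.0457, adjusted p = 4.31e-16). It was lowest in the GFP control (2.90, 2.91 and 3.03 FPKM), so the difference from that control was larger (5.21). Heavy chains of fast and perinatal myosin rose as well.

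Myh1, the heavy chain of 2X fibres, measured 542, 529 and 542 FPKM in the MLX-DN libraries and 174, 181 and 181 FPKM in the non-targeting libraries (log2 difference 1.58, SE 0.0253, adjusted p = 3.20e-16). Myh2, the heavy chain of 2A fibres, measured 42.9, 42.3 and 40.9 FPKM in the MLX-DN libraries and 14.2, 14.6 and 14.6 FPKM in the non-targeting libraries (log2 difference 1.42, SE 0.0310, adjusted p = 1.45e-14). Myh8, the perinatal heavy chain, measured 78.5, 76.6 and 78.96 FPKM in the MLX-DN libraries and 21.2, 22.99 and 21.99 FPKM in the non-targeting libraries (log2 difference 1.73, SE 0.0283, adjusted p = 3.20e-16). The groups were apart in each gene, and the heavy chains of this cluster are near copies whose reads the authors' counting may have divided. Myh1 and Myh2 were also higher than in the GFP control (1.255 and 1.248), and Myh8 was not (-0.071).

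The fast myosin-binding protein gene Mybpc2 measured 19.3, 18.4 and 18.9 FPKM in the MLX-DN libraries and 5.45, 5.55 and 5.46 FPKM in the non-targeting libraries (log2 difference 1.48, SE 0.0343, adjusted p = 2.56e-14). Trdn, which encodes triadin of the calcium release complex, measured 12.4, 12.4 and 12.9 FPKM in the MLX-DN libraries and 2.99, 3.0 and 3.27 FPKM in the non-targeting libraries (log2 difference 1.52, SE 0.0403, adjusted p = 1.35e-13). Pvalb, the calcium buffer of fast fibres, which is not on the list, measured 34.3, 34.4 and 32.9 FPKM in the MLX-DN libraries and 8.84, 8.37 and 8.24 FPKM in the non-targeting libraries (log2 difference 1.78, SE 0.0409, adjusted p = 2.42e-14). These 3 genes showed the same clean separation, and all were higher than in the GFP control as well (1.52, 0.95 and 1.12). The other list members at least 2-fold higher were the Z-disc genes Tcap (1.28), Csrp3 (1.17) and Smpx (1.06), and Tcap alone of them was lower than in the GFP control (-2.25). Myoglobin, Mb (0.99), and the fast heavy chain Myh4 (0.99) were just under 2-fold, and Myh4 was lower than in the GFP control (-2.26).

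A few muscle genes went down. Ckm, the muscle creatine kinase, measured 164, 168 and 162 FPKM in the MLX-DN libraries and 231, 236 and 230.1 FPKM in the non-targeting libraries (log2 difference -0.49, SE 0.0280, adjusted p = 9.62e-10). The calcium pump Atp2a1 (-0.24) and the slow tropomyosin Tpm3 (-0.22) were lower too. Ckm and Atp2a1 share 15.5% and 21.9% of their exon bases with A930016O22Rik and Rabep2 on the opposite strand. Against the GFP control 32 of the 73 were higher and 33 lower, with a median of -0.017, beside 32.6% higher, 48.8% lower and a median of -0.079 over all tested genes, and the atrial light chain Myl4 stood at 0.40 against one control and -1.55 against the other.

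**Figure D4:**
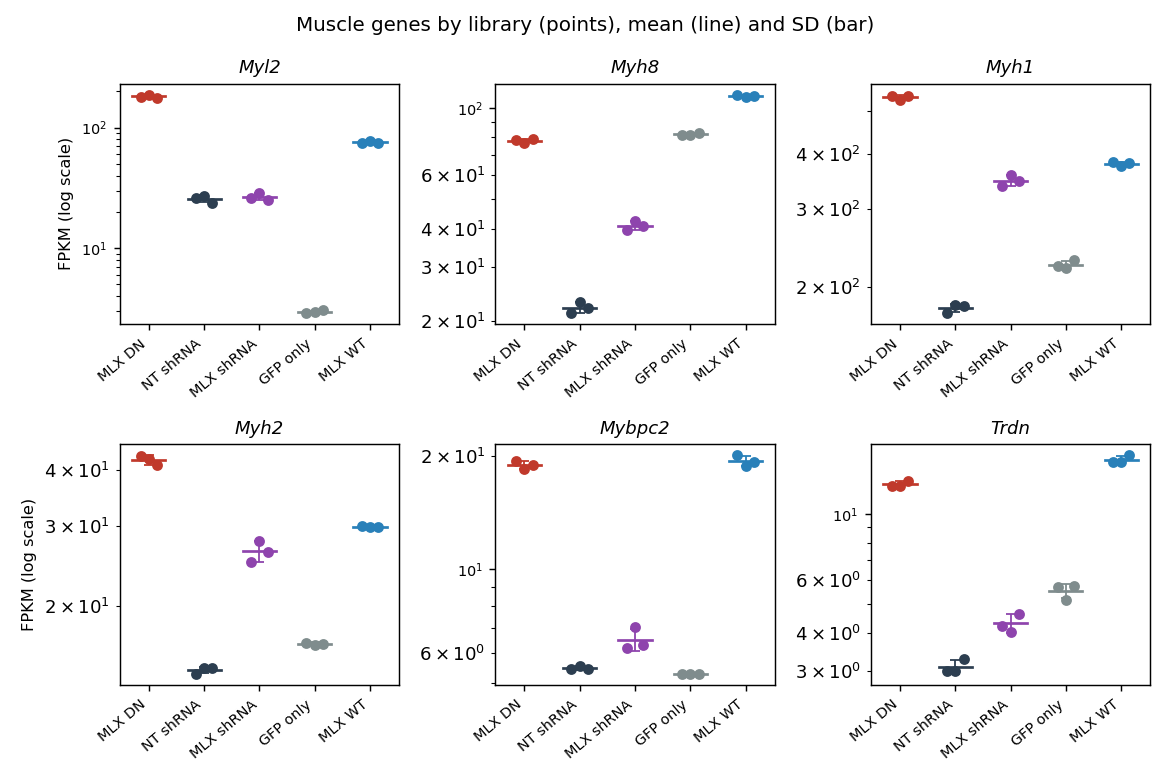
FPKM on a log scale for Myl2, Myh8, Myh1, Myh2, Mybpc2 and Trdn, 1 point a library in the 5 groups, with the group mean and SD. The MLX-DN libraries lie above the non-targeting ones in all 6 genes, while for Myh8 they lie at 76.6 to 79.0 FPKM, beside a GFP control mean of 82.02.

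Of 24 tested regulators of muscle differentiation 8 were higher (33.3%) and 11 lower (45.8%), beside 21% and 48.7% of all tested genes. Their median was -0.048, or 0.05 with median centring. Myod1, the myoblast determination factor, measured 66.4, 68.6 and 58.5 FPKM in the MLX-DN libraries and 94.2, 95.2 and 94.9 FPKM in the non-targeting libraries (log2 difference -0.55, SE 0.0432, adjusted p = 3.24e-08), and did not differ past the threshold from the GFP control (0.073, adjusted p = 0.130). Myog measured 712, 718 and 689 FPKM in the MLX-DN libraries and 647, 659 and 665 FPKM in the non-targeting libraries (log2 difference 0.10, SE 0.0247, adjusted p = 0.00148), a small rise that was lost with quantile normalization (adjusted p = 0.586). The inhibitors of helix-loop-helix factors Id3 (-0.82) and Id1 (-0.73) and the growth factor Igf2 (-0.86) fell. The noncoding RNA H19, which lies next to Igf2, rose (0.51), as did the satellite cell factor Pax7 (0.28). Of 22 tested fusion and adhesion genes 5 were higher (22.7%) and 13 lower (59.1%). The caveolin Cav3 was at 0.48 and the metalloproteinase Adam12 at -0.36. Against the GFP control both had the opposite sign (-0.040, adjusted p = 0.246, and 0.058, adjusted p = 0.0370). Summed over 12 myoblast markers, expression was 2015 to 2089 FPKM with MLX-DN and 2155 to 2247 in the non-targeting libraries, with 4 markers higher and 5 lower.

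Genes of the citric acid cycle and respiratory chain were mostly higher. Of 61, 41 were higher (67.2%) and 10 lower (16.4%, median 0.14), beside 21% and 48.7% of all tested genes. The muscle isoforms of cytochrome oxidase stood out: Cox7a1 was at 1.05 and Cox6a2 measured 111, 109 and 102 FPKM in the MLX-DN libraries and 63.9, 64.3 and 61.6 FPKM in the non-targeting libraries (log2 difference 0.74, SE 0.0379, adjusted p = 2.77e-10). The counterpart isoform of other tissues, Cox6a1, was lower (-0.43). Pdhb of pyruvate dehydrogenase (0.47) and Mdh1 (0.46) were higher, and the mitochondrial isocitrate dehydrogenase Idh2 lower (-0.49). Mdh2, Suclg2 and Ogdh, also of this list, were lower too. With median centring 46 were higher and 5 lower. Compared with the GFP control, 29 of the 61 were higher and 23 lower (median 0.050), beside 32.6% and 48.8% of all tested genes.

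The extracellular matrix went down as a list, with 49 of 61 tested members lower and 8 higher (median -0.32), where 48.7% and 21% of all tested genes were. The list was also lower with MLX-WT against the GFP control, with 41 members lower and 15 higher. Its median there was -0.35, beside -0.051 over all tested genes. Col1a1, the main chain of type I collagen, measured 43.1, 43.7 and 39.01 FPKM in the MLX-DN libraries and 203, 216 and 198 FPKM in the non-targeting libraries (log2 difference -2.24, SE 0.0365, adjusted p = 3.20e-16). Dcn, the proteoglycan decorin, measured 3.37, 3.68 and 3.63 FPKM in the MLX-DN libraries and 16.6, 17.1 and 17.4 FPKM in the non-targeting libraries (log2 difference -1.77, SE 0.0328, adjusted p = 1.45e-15). Thbs2, a matricellular thrombospondin, measured 27.2, 27.7 and 27.9 FPKM in the MLX-DN libraries and 51.5, 53.5 and 51.7 FPKM in the non-targeting libraries (log2 difference -0.87, SE 0.0231, adjusted p = 1.31e-13). The MLX-DN libraries were the lower ones throughout, and the 3 genes were also lower than in the GFP control (-3.34, -1.0 and -1.42). The periostin gene Postn (-0.93) and the gelatinase Mmp2 (-0.75) were lower here and higher against the GFP control (0.75 and 0.96). Timp3, a metalloproteinase inhibitor, rose with 83.2, 82.4 and 84.5 FPKM in the MLX-DN libraries and 42.7, 42.9 and 43.2 FPKM in the non-targeting libraries (log2 difference 0.93, SE 0.0202, adjusted p = 1.45e-14), as did the TGF-beta binding protein Ltbp2 (0.53) and Col6a3 (0.53, but -1.34 against the GFP control). Among the largest falls outside the list, the LIM protein gene Pdlim7 measured 42.2, 43.3 and 40.6 FPKM in the MLX-DN libraries and 127, 126 and 124 FPKM in the non-targeting libraries (-1.53). Its groups lay well apart. The joint lubricant Prg4 (-1.31), the protease inhibitor Serpine2 (-1.09), Fibin (-1.06), the surface protein Ly6c2 (-1.12) and the row named for the microRNA Mir23a (-1.07) also fell, of which Prg4, Serpine2 and Mir23a were not lower than in the GFP control (0.20, 0.076 and 0.23).

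Col1a1, Dcn, Cd34 (-1.26) and Dpt, the dermatopontin gene (-1.12), are also markers of fibroblasts. Of 9 tested fibroblast markers 7 were lower (77.8%) and 0 higher, beside 48.7% and 21% of all tested genes. The sum over 13 listed markers was 1564 to 1600 FPKM with MLX-DN and 1857 to 1906 FPKM in the non-targeting libraries, with Tcf21 at 0 in all libraries of both groups. Most of each sum was S100a4, at 1261 and 1256 FPKM. In the GFP control the sum was 3039 to 3124 FPKM and with MLX shRNA 769 to 799. Cd34 and Dpt were higher than in the GFP control (0.52 and 0.32). The part of fibroblast-like cells in the fall of matrix genes was not tested.

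The bone hormone gene Bglap2 (osteocalcin) rose, with 57.04, 56.98 and 58.5 FPKM in the MLX-DN libraries and 9.09, 8.97 and 10.9 FPKM in the non-targeting libraries (log2 difference 2.36, SE 0.0530, adjusted p = 1.80e-14), and its near copy Bglap rose from 0.432 to 2.81 FPKM (0.98). The groups were apart in both rows, and the reads of the copies may have been divided between them. Runx2, the master factor of bone cells, was lower (-0.21, a call lost with quantile normalization, adjusted p = 0.0965). The 9 osteoblast markers, most of whose sum was Spp1, came to 1068 to 1112 FPKM with MLX-DN and 1016 to 1051 FPKM in the control. Of 3 tested adipocyte markers, of which Lpl is one, 2 were lower, and the 8 listed summed to 9.82 to 11.1 FPKM against 25.2 to 25.4, with Adipoq and Plin1 at 0 in both groups. Markers of endothelial cells summed to at most 0.368 FPKM in either group. The part of other cell types in these differences was not tested.

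Targets of TGF-beta, the serum response factor and YAP lay near the shares of all tested genes (21% higher and 48.7% lower). Of 29 tested, 7 were higher (24.1%) and 16 lower (55.2%). Ankrd1, a stress-responsive ankyrin protein of muscle, rose (0.72), as did the tropomyosin Tpm1 (0.55), while the focal adhesion protein Zyx fell (-0.68). Of 69 tested secreted muscle factors 18 were higher (26.1%) and 37 lower (53.6%), again near those shares. The activin subunit Inhbb measured 4.11, 4.53 and 4.21 FPKM in the MLX-DN libraries and 10.3, 10.8 and 10.6 FPKM in the non-targeting libraries (log2 difference -0.999, SE 0.0315, adjusted p = 1.04e-12) and the activin antagonist Fst measured 41.7, 40.97 and 42.3 FPKM in the MLX-DN libraries and 25.7, 24.6 and 24.9 FPKM in the non-targeting libraries (log2 difference 0.69, SE 0.0274, adjusted p = 1.72e-11). Their groups did not overlap, Inhbb being the lower and Fst the higher with MLX-DN, although Fst did not pass against the GFP control (0.055, adjusted p = 0.0763). The other activin subunit gene Inhba (0.50) and the WNT inhibitor Dkk2 (0.97) were higher.

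Only 3 tested genes with a mean of at least 2 FPKM in one group were under 0.1 FPKM in every library of the other. Fgl1, which encodes a secreted fibrinogen-like protein of liver that also binds an inhibitory lymphocyte receptor, measured 8.47, 7.45 and 8.87 FPKM in the MLX-DN libraries and 0, 0.0648 and 0 FPKM in the non-targeting libraries. Ptprc, which encodes CD45, the phosphatase on the surface of blood cells, measured 4.39, 4.52 and 4.74 FPKM in the MLX-DN libraries and was listed at 0 in all 3 non-targeting libraries. Gpc4, a cell-surface glypican, measured 0.0196, 0.0411 and 0.0182 FPKM in the MLX-DN libraries and 6.31, 6.11 and 5.57 FPKM in the non-targeting libraries (log2 difference -1.98, SE 0.0439, adjusted p = 1.55e-14). Fgl1 and Ptprc were thus on in the MLX-DN libraries and off in the control, and Gpc4 the reverse. Fgl1 and Ptprc reached the filter through the MLX-DN libraries alone, so their tests are not given. The offset of 2 compresses the log2 difference of Gpc4.

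With MLX shRNA Fgl1 measured 0.0709, 0.0721 and 0.0171 FPKM, in the GFP control 0.0539, 0 and 0.0231 and with MLX-WT 0.0538, 0.0458 and 0. Ptprc was at 0 with MLX shRNA and MLX-WT and measured 0, 0 and 0.00989 FPKM in the GFP control. Among these 15 libraries, both genes were thus above 0.1 FPKM only in those with MLX-DN. Gpc4 was off in the GFP control (0.0208, 0 and 0.0223 FPKM) and with MLX shRNA (0.0228, 0.0348 and 0.0329 FPKM) as well, and on with MLX-WT (3.55, 4.02 and 3.23 FPKM). The direction of Gpc4 therefore rests on the non-targeting control, and its difference from the GFP control was 0.0085. Of 10 listed markers of blood cells 3 passed the filter, and one of these, the monocyte receptor Cd14, fell (-0.45, but -0.076 against the GFP control, adjusted p = 0.153). The sum over the 10 was 7.90 to 8.49 FPKM with MLX-DN and 5.11 to 5.60 FPKM in the control. Ptprc alone gave 4.39 to 4.74 FPKM of the MLX-DN sums and 0 of the control sums, more than the gap between the sums. The macrophage marker Emr1 (F4/80) was at 0 in every library. The T cell marker Cd3e was at 0 with MLX-DN, and the myeloid markers Lyz2 and Aif1 were at 0.0518 and 0.00577 FPKM, both under the filter. Ptprc passed the filter only through the libraries in which it was high. Cd24a, a surface glycoprotein of precursor cells, went up without being absent from the control, with 49.1, 49.05 and 50.1 FPKM in the MLX-DN libraries and 9.47, 9.39 and 9.98 FPKM in the non-targeting libraries (log2 difference 2.15, SE 0.0373, adjusted p = 6.75e-16). Lrrn1, a leucine-rich repeat neuronal protein gene (1.51), and Trp53inp2, an autophagy factor (1.44), rose likewise. Srp54a, a subunit of the signal recognition particle, measured 125, 132 and 128 FPKM in the MLX-DN libraries and 22.5, 21.4 and 21.4 FPKM in the non-targeting libraries (log2 difference 2.45, SE 0.388, adjusted p = 4.42e-05). It has near-identical copies, among which reads may have been divided, and MLX shRNA replicate 3 stood at 120.1 FPKM beside 24.1 and 23.5 in its group. Without that library the adjusted p of Srp54a was 4.04e-17.

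**Figure D5:**
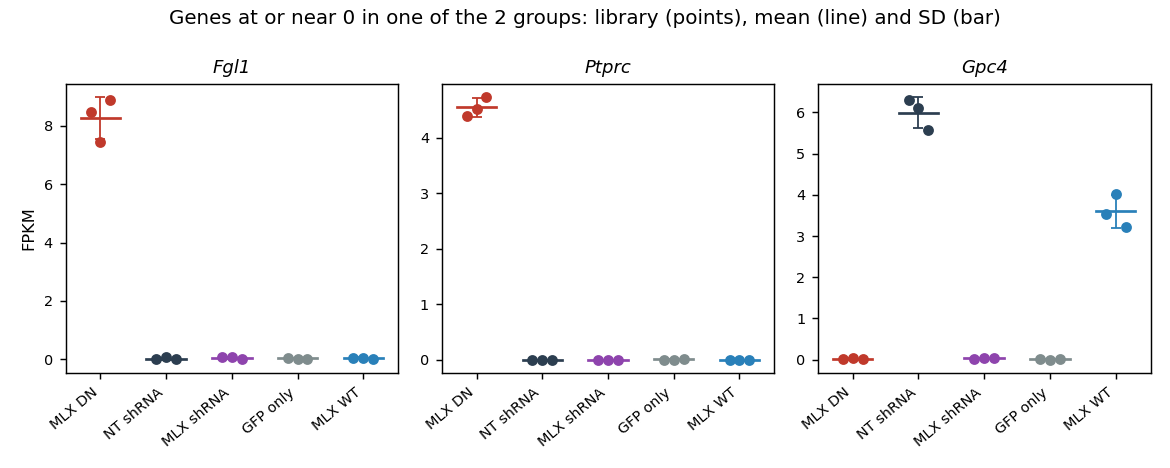
FPKM on a linear scale for Fgl1, Ptprc and Gpc4, 1 point a library in the 5 groups, with the group mean and SD. Fgl1 (7.45 to 8.87 FPKM) and Ptprc (4.39 to 4.74 FPKM) are seen in the MLX-DN libraries alone, and Gpc4 in the non-targeting and MLX-WT libraries.

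Signalling genes that respond within minutes of stimulation were lower. Of 27 tested immediate early genes 23 fell (85.2%) and 0 rose, beside 48.7% and 21% of all tested genes. Their median was -0.26, against -0.085 over all tested genes. Dusp1, a phosphatase of MAP kinases, measured 17.3, 17.6 and 16.99 FPKM in the MLX-DN libraries and 30.9, 30.9 and 29.3 FPKM in the non-targeting libraries (log2 difference -0.75, SE 0.0301, adjusted p = 2.01e-11), and the transcription factors Fos (-0.58) and Egr1 (-0.33) were lower. Dusp1 was lower in every MLX-DN library than in any non-targeting one, but not lower than in the GFP control (0.073). In the Notch pathway 12 of 14 tested genes were lower (85.7%) and 2 higher (14.3%), with a median of -0.28. The ligand Dll1 (-0.41), the receptor Notch1 (-0.28) and the target Hes1 (-0.35) fell, and the ligand Jag1 rose (0.36). Dll1 and Notch1 were higher than in the GFP control (0.27 and 0.16), where the median of the list was 0.037.

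Interferon and antigen presentation genes were split 8 higher (20%) to 13 lower (32.5%) among 40 tested, beside 21% and 48.7% of all tested genes. With median centring the split was 14 to 9. The guanylate-binding proteins Gbp8, with 11.1, 10.98 and 11.1 FPKM in the MLX-DN libraries and 3.05, 3.44 and 3.53 FPKM in the non-targeting libraries (log2 difference 1.29, SE 0.0315, adjusted p = 4.90e-14), Gbp6 (0.95) and Gbp4 (0.67) rose, and this family holds near copies. B2m, the light chain of class I molecules, rose (0.28), while the peptide loading protein Tapbp (-0.54), the antiviral Ifitm3 (-0.42) and the factor Irf1 (-0.53) fell.

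Of 46 ER stress and ATF4 target genes 12 were higher (26.1%) and 25 lower (54.3%, median -0.11), near the 21% and 48.7% of all tested genes. With the GFP control 35 were higher and 7 lower (median 0.48), where 32.6% of all tested genes were higher and 48.8% lower. The ER chaperones Hspa5 (0.31) and Dnajb9 (0.46) rose, and the factor Cebpb (-0.95, 20.7% of exon bases shared with Tmem189 on the other strand) and the serine enzyme Shmt2 (-0.47, but 0.14 against the GFP control) fell. Hypoxia genes were split 7 higher to 11 lower among 27, with the mitophagy receptor Bnip3l at 0.42 and the collagen hydroxylase P4ha2 at -0.56, and against the GFP control 20 were higher and 4 lower, beside the same 32.6% and 48.8% of all genes. Of 23 p53 targets 3 were higher (13%), led by Ccng1 (0.70), and 15 lower (65.2%), beside 21% and 48.7% of all tested genes. The stress hormone Gdf15 was at -0.82 (against the GFP control -0.076, adjusted p = 0.297) and Trp53 itself at -0.45.

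Of 37 antioxidant genes 12 were higher (32.4%) and 16 lower (43.2%). The lists of this paragraph stand beside 21% higher and 48.7% lower of all tested genes. The glutathione transferase Gsta4 measured 33.3, 36.1 and 33.8 FPKM in the MLX-DN libraries and 11.7, 13.04 and 12.03 FPKM in the non-targeting libraries (log2 difference 1.35, SE 0.0445, adjusted p = 1.76e-12). The heme oxygenase Hmox1 fell (-0.42, but 0.074 against the GFP control). Among lysosome and autophagy genes 8 of 41 were higher and 26 lower, with the autophagosome protein Map1lc3a at 0.55 and the lysosomal enzyme Gusb at -0.42. Of 36 ribosome biogenesis genes 6 were higher and 22 lower (median -0.098), with Gnl3 at 0.26 and Bop1 at -0.30, and median centring changed that split to 12 and 9. Compared with the GFP control, 16 of the 36 were higher and 13 lower (median 0.021), beside 32.6% and 48.8% of all tested genes. In the atrophy and FOXO list 3 of 16 were higher and 11 lower, with the mTOR inhibitor Deptor at 0.47 and the translation inhibitor Eif4ebp1 at -0.39 (0.055 against the GFP control). Of 16 tested histone genes of replication, whose messages mostly lack a poly(A) tail, 3 were higher and 1 lower.

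Lowering MLX by shRNA used the same control libraries, so the difference between both effects is the direct contrast of MLX-DN with MLX shRNA. In it 8506 of 11945 genes differed (71.2%), 3243 higher (27.1%) and 5263 lower (44.1%) with MLX-DN, and 166 at least 2-fold. Txnip was lower with MLX-DN than with the shRNA (log2 difference -1.02, SE 0.0386, adjusted p = 3.60e-12), beside Mlx levels of 394 and 3.21 FPKM. The genes named next were ranked only among those also called against the non-targeting control, with a higher group mean of at least 2 FPKM. On the higher side those of lowest p, apart from Mlx, were Cilp, Myl9, Bgn and Sod3. Cilp, a cartilage matrix protein, measured 27.9, 28.2 and 28.1 FPKM with MLX-DN and 0.376, 0.207 and 0.258 FPKM with MLX shRNA (difference 3.72, adjusted p = 6.99e-20), and was at 51.8 FPKM in the non-targeting control and 6.08 in the GFP control. The light chain gene Myl9 (2.48), biglycan (Bgn, 1.62) and the extracellular superoxide dismutase Sod3 (2.74) were also higher than with the shRNA. Against the non-targeting control these genes changed little with MLX-DN (Myl9 0.25, Bgn -0.22, Sod3 -0.11) and strongly with the shRNA (-2.23, -1.84 and -2.85). The call of Sod3 in the first of these was unstable, with an adjusted p of 0.0290 as fitted, 0.749 with median centring and 0.530 with quantile normalization. Myl9 and Sod3 had the opposite sign against the GFP control (-1.255 and 1.96). For Sod3 the adjusted p was 0.0569 without MLX-DN replicate 1, 0.155 without MLX-DN replicate 3, 0.0919 without non-targeting replicate 1 and 0.114 without non-targeting replicate 2.

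On the lower side were the urokinase Plau (-1.42), Postn (-1.54), Gbp8 (-1.72), the surface protein Ly6e (-1.37) and tenascin C (Tnc, -1.24). Plau measured 47.3, 47.2 and 48.5 FPKM with MLX-DN, 49.3, 50.7 and 50.2 FPKM in the non-targeting control and 131, 130.1 and 132 FPKM with the shRNA. Its small fall against the control (-0.068) changed sign with median centring (0.025) and against the GFP control (0.24). Postn and Tnc fell with MLX-DN (-0.93 and -0.52) and rose with the shRNA (0.60 and 0.72) against the same control, while Tnc did not pass against the GFP control (-0.052, adjusted p = 0.0751).

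The effect of MLX-DN on the non-targeting control and that of MLX-WT on the GFP control share no library, and their difference passed in 6776 genes (56.7%). Of the 8331 genes called with MLX-DN 74.8% were also called with MLX-WT, and of the 8400 called with MLX-WT (70.3% of all tested) 74.2% with MLX-DN. Of these 6229 shared genes 4650 went the same way and 1579 opposite ways, and 13 were at least 2-fold in both, 3 of these in opposite directions. Lpl fell by 1.71 with MLX-DN and rose by 1.80 with MLX-WT, where it measured 68.7, 69.4 and 71.9 FPKM against 19.02, 18.4 and 18.6 in the GFP control (difference of effects -3.51, SE 0.0379, adjusted p = 6.46e-18). Txnip fell with MLX-DN and rose by 0.31 with MLX-WT (difference -3.95, adjusted p = 1.24e-16), and Gm15441 followed it. Bgn (-0.22 with MLX-DN, -1.75 with MLX-WT) and the calpain-like gene Capn6 (-0.19 and -2.08) fell in both, more with MLX-WT. The kinase gene Mylk4 (0.19 and -1.78) and Myl4 (0.40 and -1.28) differed in direction, and both were lower with MLX-DN than in the GFP control (-1.58 for Mylk4). Bglap2 (3.30), Myl2 (3.97) and Mybpc2 (1.55) rose with MLX-WT too.

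The choice of control mattered for many of these values. The non-targeting and GFP controls differed in 8854 genes (74.1%), 300 of them at least 2-fold. MLX-DN differed at least 2-fold from the GFP control in 462 genes (3.87%) and from the non-targeting one in 53 (0.444%). The non-targeting control was chosen for its closer profile, so the smaller count against it was partly built in. On chromosome 8, between Arhgap10 and Rrad, 129 genes of mean FPKM of at least 5 stood at a median of 0.96 relative to the GFP control and -0.16 relative to the non-targeting one, and the 2 controls differed there by a median of 1.16. Of the 15 largest falls named here, Gpc4, Prg4, Cd34, Dpt, Serpine2 and Mir23a were not lower than in the GFP control, while Txnip, Col1a1, Dcn, Lpl, Pdlim7, Apoe, Ly6c2, Fibin and Tk1 were. Of the 15 largest rises only Myh8 was not higher. Fgl1 and Ptprc, among these 15, reached the filter through the MLX-DN libraries alone, so their rise over the GFP control was built in.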

How the data were processed

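Poly(A) RNA of C2C12 cells was sequenced in 15 libraries, which were grouped by their labels. The authors deposited 1 table of log2 values whose lowest value was exactly 1, read as log2(FPKM + 2). Per the labels' protocols, RNA was poly(A)-selected and made into libraries with a stranded kit. The submitters' processing notes name CASAVA, TopHat2, STAR and mm9 without role or version, and how the counting used strand was not given in the sources used here. This comparison, its gene lists and the genes in them were chosen with earlier results of these data known.

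The deposited log2 values of 11945 genes with FPKM of at least 1 in at least 3 libraries were fitted with limma (3.58.1, R 4.3.3), 1 mean per group over 15 libraries, a variance trend, two-sided tests, and Benjamini-Hochberg adjustment over all tested genes and a threshold of 0.05. "Higher", "lower", "rose" and "fell" mean called at that threshold. Log2 differences are on the log2(FPKM + 2) scale and understate changes of low genes. The fit was tested on simulated data. Low values were whole reads to within 0.05 of a read for 66.5% to 71.3% of them (10% if evenly spread), which gave the depths over 15972 genes of 1 length. No count model was run, and no values were imputed.

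Genes named are the 15 largest rises and falls among calls with no overlap of the groups and a higher group mean of at least 2 FPKM (predicted genes left out), tested members of the MLX network, arrestin and glucose lists, up to 5 members of lowest p per direction and known limiting enzymes or regulators in each other list, and the 5 of lowest p per direction in the differences of effects. The last were genes also called between MLX-DN and the non-targeting control, with a higher group mean of at least 2 FPKM. Tcap, Csrp3, Smpx, Mb, Myh4, Cox7a1, Rn45s, the response element genes and the promoters of Mcm3 and Top2a were chosen after their values were seen. The rule also named Sc4mol's promoter, which held no match and is not printed, and Fdps, whose promoter was not used here. A few results under this rule are not reported here. Replicate numbers of MLX-DN and non-targeting libraries did not pair them (correlations of deviations -0.05, 0.09 and 0.07). Calls and named genes were recomputed, where they could be, with offsets of 1 and 0.1, no filter or a minimum of 5 FPKM, median centring, quantile normalization, no variance trend, a replicate block, only the compared groups, the GFP control, and without each library.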

Additional observations from a re-analysis of the deposited data

Results flagged for a closer look

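In the genes below, the effect of MLX-DN against the non-targeting control and that of MLX-WT against the GFP control were both past the threshold with opposite signs, and the difference of the effects passed as well by limma with Benjamini-Hochberg adjustment (10 residual degrees of freedom, 3 libraries a group). These genes were picked from the largest changes with MLX-DN and from the lowest p of this same difference. Their passing was thus built into the choice. Over all tested genes, 1579 were called in both effects with opposite signs. The difference of the effects passed in 56.7% of all tested genes. It was -3.95 for Txnip (log2 -3.64 with MLX-DN and 0.31 with MLX-WT), -3.29 for its antisense gene Gm15441, -3.51 for Lpl and -2.65 for Apoe (-1.45 and 1.21). Gpc4 differed by -3.45 (-1.98 and 1.47), Dpt by -1.99, Thbs2 by -1.83 (-0.87 and 0.95), Prg4 by -1.80, Mir23a by -1.61 and Cd34 by -1.52. Gpc4 measured 0.0208, 0 and 0.0223 FPKM in the GFP control and 6.31, 6.11 and 5.57 FPKM in the non-targeting one, so its effects start from unlike levels. In the other direction the difference was 1.97 for Mylk4 and 1.68 for Myl4, both of which were higher in the GFP control (means of 11.9 and 1807 FPKM) than in the non-targeting one (2.07 and 467 FPKM).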

How the results depend on the processing

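The 8331 calls between MLX-DN and the non-targeting control became 6669 to 8635 when the offset, filter, scaling, variance model or set of groups was changed, and 7804 to 8513 with 1 library left out at a time. Replicate numbers did not pair the libraries, and a fit with the replicate number as a block gave 8351 calls. The 2-fold count of 53 depended on the offset, at 92 with an offset of 1 and 230 with 0.1, which compress low genes less. It became 462 with the GFP control in place of the non-targeting one, which had been chosen for its closer profile. The 2510 higher calls became 4131 with median centring, which sets every library to the same median, and 3892 with the GFP control. The 5821 lower calls became 3710 with median centring. Median centring turned the sign of Mid1ip1 (0.074), Pfkfb2 (0.0075), Pfkfb3 (0.0053), Plau (0.025) and Rbbp4 (0.038). Only Mid1ip1 passed the threshold there. With the GFP control, sarcomere, glucose and matrix genes turned: Myl4 (-1.55), Mylk4 (-1.58), Myl9 (-1.255), Tcap (-2.25), Myh4 (-2.26), Myh8 (-0.071), Cav3 (-0.040), Pgam2 (-0.84), Pfkm (-0.29), Pfkp (0.49), Gpd1 (-0.26), Hk2 (0.036), Slc2a1 (0.19), Fgf21 (2.08), Elovl6 (-0.42), Sqle (-0.12), Idh1 (-0.28), Nadk (0.11), Col6a3 (-1.34), Cilp (1.90), Postn (0.75), Mmp2 (0.96), Plau (0.24), Prg4 (0.20), Serpine2 (0.076), Dpt (0.32), Cd34 (0.52), Gpc4 (0.0085) and Adam12 (0.058). So did Myod1 (0.073), Mycl1 (1.24), Mxi1 (0.12), E2f2 (0.74), Notch1 (0.16), Dll1 (0.27), Dusp1 (0.073), Mir23a (0.23), Shmt2 (0.14), Eif4ebp1 (0.055), Hmox1 (0.074), Rbbp4 (0.023) and Sod3 (1.96). Of the genes that turned, Cav3, Hk2, Serpine2, Gpc4, Myod1, Eif4ebp1 and Rbbp4 did not pass against the GFP control (adjusted p = 0.130 to 0.862). The calls of Cd14, Cdh15, Fst, Gdf15, Mlxip, Rn45s, Tfeb and Tnc were lost with the GFP control. The cause was not tested. Depth limits genes near the floor of 3 reads, such as Arrdc4.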

Other observations

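The median difference between MLX-DN and the non-targeting control was uneven over chromosomes. Over the 8561 genes with a mean of at least 5 FPKM and a place in the GRCm38 annotation, it was 0.10 on chromosome 14 and 0.09 on chromosome 9, where 53.5% and 51.3% of genes were called higher, against -0.17 on chromosomes 15 and 17 and -0.09 over all placed genes, of which 23.5% were called higher. With MLX shRNA, which shares the non-targeting libraries, the medians on chromosomes 14 and 9 were 0.15 and 0.18. No cause was tested.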
